A study of Drosophila melanogaster with 35 samples.

Results

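The 10 genes described here, Adh, Srg3, CG4757, frac, CG45080, whe, CG16826, lcs, CG33109 and Ag5r, are 10 of the 17830 genes in a count table of fly heads, and were chosen by their head counts, which were lower in several Kdm5 mutant strains than in wild type (WT). Since the rule used these counts, every comparison of these genes with WT below is a description without a test. All 10 passed the filter on low counts. RNA-seq covered heads of Drosophila melanogaster of 7 genotypes. These were the missense strains A224T, L854F, D234G, R873W and Y874C and the strain JmjC, named for the catalytic domain and known as demethylase-dead (n = 3 each), and flies labelled WT (n = 5). All flies were kept at 25 °C and taken 1 to 5 days after eclosion; the sources used here do not state their sex. Ribosome profiling (Ribo-Seq), which sequences the stretches of RNA covered by ribosomes, compared neurons of the genotype elav;RPL3-FLAG;kdm5RNAI with neurons of elav;RPL3-FLAG, in IP and Input libraries (n = 3 each). The elav part names a neuronal promoter and RPL3-FLAG a tagged ribosomal protein, and both are shared by knockdown and control.

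KDM5 is a chromatin protein whose JmjC domain takes methyl groups off histone H3 at lysine 4, a mark of active promoters, and it also regulates genes in ways that do not need this activity. The 10 genes belong to no single pathway. Adh encodes alcohol dehydrogenase, which oxidises ethanol and is made mainly in fat body and gut. Srg3 is a STING-regulated gene: STING is a sensor of cyclic dinucleotides that acts through the NF-kappaB factor Relish against viruses. CG4757 encodes a predicted carboxylesterase, an enzyme that cleaves ester bonds. Ag5r, antigen 5-related, encodes a secreted protein of the CAP family, which also holds insect venom allergens. For frac, lcs (la costa), whe, CG16826, CG33109 and CG45080 no role is given here.

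In the dm6 assembly, by the gene positions in the authors' deposited Ribo-Seq table, the genes lie on 4 chromosome arms. Genes between or overlapping them are from the RefSeq annotation. On 2L are CG16826 (13347773 to 13349020) and Adh (14615552 to 14618902). On 3L are frac (7562610 to 7569499) and Srg3 (9443232 to 9446388). On 3R are CG4757 (11161207 to 11163498), CG45080 (13318991 to 13319270) and CG33109 (14220560 to 14221584). On X are Ag5r (14784664 to 14786551), lcs (21396727 to 21397316) and whe (21402339 to 21402772). The pair lcs and whe lie 5.022 kb apart on the same strand with 1 annotated gene, lncRNA:CR45500, between them, and every other pair on an arm is separated by 133 annotated genes or more. Adh spans the same bases as Adhr, an Adh-related gene, and lies within osp. Adhr was listed at 0 in all 23 head libraries, and the sources used here do not state how reads in overlapping genes were handled, so the level of Adh is uncertain.

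Library totals were 16993554 to 32985353 counts, except D234G 1 with 3803077 and D234G 2 with 4960383. Levels are CPM, counts scaled to a common library total, with effective totals from trimmed mean of M values (TMM). The 23 libraries formed 2 sets by roX2, a noncoding RNA of the male dosage compensation complex. Set 1, with roX2 at 19.5 to 40.4 CPM, held WT 1 and WT 2 and every library of D234G, R873W and Y874C. Set 2, with roX2 at 0.142 to 0.941 CPM, held WT 3 to 5 and every library of A224T, L854F and JmjC. The libraries of set 2 were not alike in roX1, the partner of roX2, which reached 278 to 337 CPM in JmjC, 181 to 219 CPM in A224T and 86.0 to 95.2 CPM in L854F, against 12.6 to 13.9 CPM in WT 3 to 5. In set 1 it had 615 to 721 CPM in D234G, 546 to 758 CPM in R873W and 526 to 784 CPM in Y874C, against 814 to 859 CPM in WT 1 and 2. WT libraries of the same set therefore match a strain in roX2 but not in roX1, where they lay below the strains in set 2 and above them in set 1. Each mutant strain lay in 1 set, so set and strain cannot be told apart between strains of different sets, and only WT crossed both. Kdm5 itself had 454 ± 18.3 CPM in JmjC and 520 ± 21.3 to 572 ± 5.54 CPM in the missense strains (SD, n = 3 each), against 482 ± 33.9 CPM in WT (SD, n = 5), and its level does not check the label of a missense change. The 12 listed markers of head neurons and photoreceptors were above 0 in every library and summed to 42796 to 61927 CPM.

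The genes showed 3 patterns over the libraries. Adh, Srg3 and CG4757 differed between strains, with Adh lowest in R873W and Y874C, Srg3 lowest in A224T and R873W, and CG4757 lowest in D234G. For frac, high levels were found in WT 1 and WT 2 and in no other library. The other 6 genes, CG45080, whe, CG16826, lcs, CG33109 and Ag5r, were high in WT 2, WT 3 and WT 5 and near 0 in WT 1 and WT 4, and within strains they rose and dipped together in single libraries. In 7 of the 10 genes, frac and these 6, the SD over the 5 WT libraries exceeded the WT mean.

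**Figure D1:**
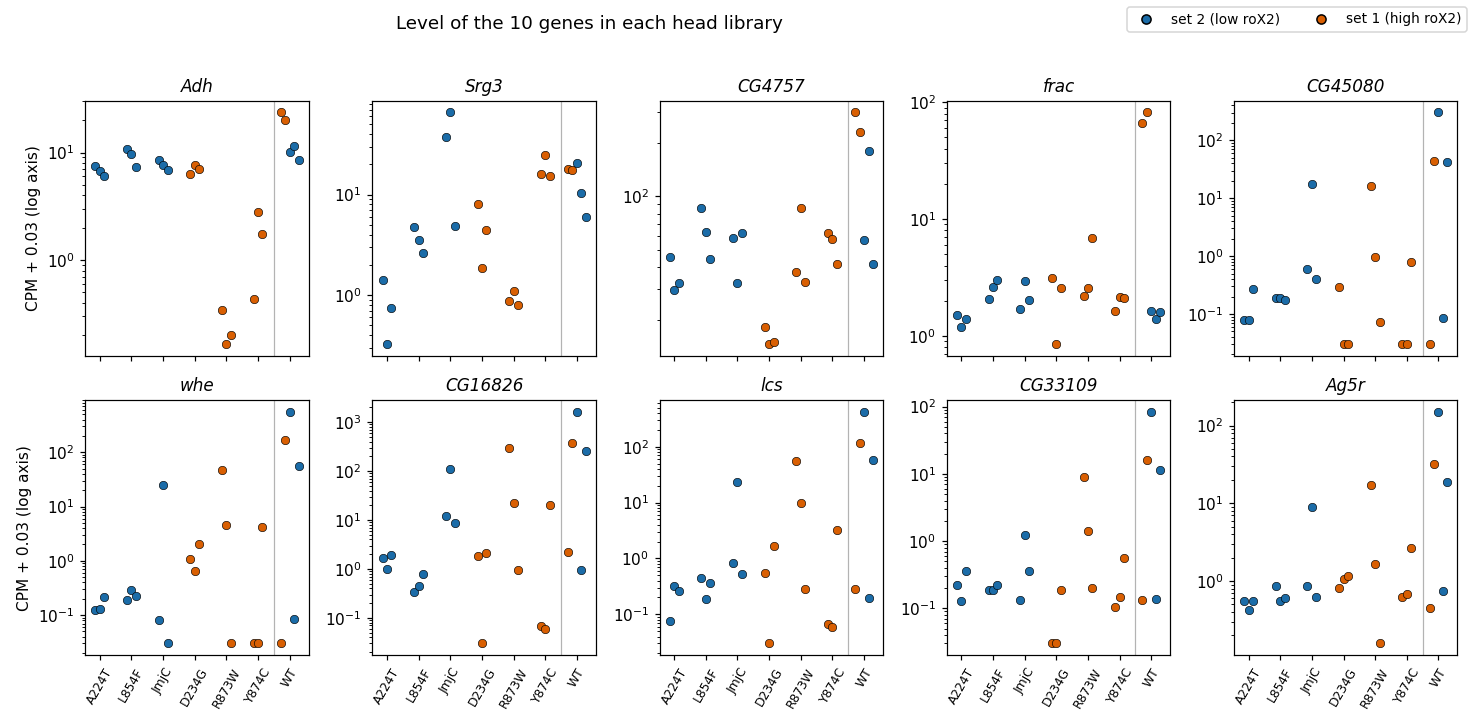
Level of each of the 10 genes (CPM plus 0.03, log axis) in each head library, with the 6 mutant strains left of WT and points coloured by the roX2 set. The 5 WT points span 8.51 to 23.5 CPM for Adh and 5.92 to 20.6 CPM for Srg3, 2 WT points (WT 1 and WT 2) stand above all others for frac, and the WT points of the 6 genes from CG45080 to Ag5r split into 3 high and 2 near 0.

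Few of the genes were lower than WT without overlap of the libraries. Every library lay below every WT library for 2 of the 10 genes in A224T (8.09% of the 12093 genes tested did so), 2 in L854F (6.04%), 0 in JmjC (14.3%), 2 in D234G (14.0%), 2 in R873W (16.8%) and 1 in Y874C (8.48%). The genes were Adh in A224T, D234G, R873W and Y874C, Srg3 in A224T, L854F and R873W, CG4757 in D234G, and CG16826 in L854F. Against the WT libraries of the same set the counts were 3 in A224T (16.6%), 2 in L854F (14.7%), 0 in JmjC (22.0%), 5 in D234G (23.9%), 4 in R873W (29.4%) and 3 in Y874C (20.6%). Nothing is read from these shares, since the same libraries chose the genes.

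Adh had 7.53, 6.64 and 6.04 CPM in A224T, 10.7, 9.62 and 7.27 CPM in L854F and 8.52, 7.62 and 6.90 CPM in JmjC. It had 6.25, 7.56 and 7.06 CPM in D234G, 0.311, 0.135 and 0.170 CPM in R873W and 0.407, 2.76 and 1.72 CPM in Y874C, against 23.5, 20.0, 10.04, 11.5 and 8.51 CPM in WT 1 to 5. R873W and Y874C were therefore the lowest, R873W resting on 7, 3 and 4 counts, and WT 1 and WT 2 were the highest, while WT 3 to 5 overlapped the L854F libraries. Mean levels were 0.205 ± 0.0934 CPM in R873W and 1.63 ± 1.18 CPM in Y874C (SD, n = 3 each), against 14.7 ± 6.65 CPM in WT (SD, n = 5). The log2 fold against all WT libraries was -6.13 in R873W, -3.15 in Y874C and between -1.13 and -0.68 in the other strains. With same-set WT libraries it was -6.70 in R873W, -3.72 in Y874C and -1.66 in D234G, but -0.59 in A224T, -0.40 in JmjC and -0.14 in L854F. Leaving out WT 3 changed none of these directions. In bulk heads, fewer cells that make a transcript and less of it per cell cannot be told apart. The 20 listed fat body genes summed to 25627 to 31826 CPM in R873W, 22131 to 27266 CPM in Y874C and 12817 to 15782 CPM in D234G, against 15322 and 17110 CPM in WT 1 and WT 2 and 64315 to 67952 CPM in WT 3 to 5, with at most 1 of the 20 at 0 in a library. Their part in the Adh levels was not tested.

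Srg3 had 1.37, 0.293 and 0.708 CPM in A224T, 4.70, 3.47 and 2.57 CPM in L854F and 37.3, 65.6 and 4.89 CPM in JmjC. It had 8.07, 1.84 and 4.38 CPM in D234G, 0.844, 1.08 and 0.764 CPM in R873W and 16.0, 24.6 and 15.4 CPM in Y874C, against 18.01, 17.4, 20.6, 10.3 and 5.92 CPM in WT 1 to 5. A224T, L854F and R873W lay wholly below WT, D234G overlapped WT 5, Y874C lay within or above the WT range, and JmjC had 2 libraries above every WT library and 1 below all of them. The log2 fold against WT was -4.17 in A224T, -4.01 in R873W, -2.02 in L854F and -1.66 in D234G, and it was 1.31 in JmjC and 0.37 in Y874C. Without JmjC 2 the JmjC value was 0.56. Sting, which encodes the sensor, had 36.5 ± 14.6 CPM in JmjC (SD, n = 3) with 37.1, 50.8 and 21.6 CPM in its libraries, against 16.2 ± 3.69 CPM in WT (SD, n = 5). The JmjC libraries were thus in the same order for Sting and for Srg3, with the highest value in JmjC 2 and the lowest in JmjC 3. This was not particular to JmjC: the order was also shared in A224T, L854F, D234G and R873W, but not in Y874C or WT.

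CG4757 had 45.2, 29.5 and 32.2 CPM in A224T, 85.5, 62.6 and 44.4 CPM in L854F and 58.4, 32.3 and 62.3 CPM in JmjC. It had 18.2, 14.5 and 14.99 CPM in D234G, 37.1, 85.9 and 32.6 CPM in R873W and 62.2, 57.5 and 41.6 CPM in Y874C, against 298, 229.9, 56.3, 181 and 41.3 CPM in WT 1 to 5. WT 1, WT 2 and WT 4 stood above every mutant library, while WT 3 and WT 5 lay inside the mutant range. The log2 fold was -3.36 in D234G and between -2.18 and -1.33 in the other strains. With same-set WT libraries it was -4.10 in D234G, -2.37 in R873W and -2.31 in Y874C, whose WT libraries are WT 1 and 2, and -1.40 in A224T, -0.88 in JmjC and -0.55 in L854F, whose WT libraries are WT 3 to 5.

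For frac, the fall came from 1 library set. It had 66.8 and 81.6 CPM in WT 1 and WT 2 but 1.61, 1.37 and 1.57 CPM in WT 3 to 5. Mutant libraries spanned 0.818 CPM (D234G 2) to 6.87 CPM (R873W 3), so every mutant library of both sets was near the level of WT 3 to 5. The log2 fold against all WT libraries was -4.51 in A224T, -3.60 in L854F and -3.79 in JmjC, but with WT 3 to 5 alone it was -0.19 in A224T, 0.73 in L854F and 0.52 in JmjC, so that the sign turned in L854F and JmjC. With WT 1 and 2 alone it was -5.08 in D234G, -4.27 in R873W and -5.28 in Y874C. Without WT 3 all 6 values stayed negative, between -4.82 and -3.29.

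The 6 genes CG45080, whe, CG16826, lcs, CG33109 and Ag5r, grouped here after their values were seen, moved together from library to library. CG16826 had 297, 22.4 and 0.934 CPM in R873W, 11.8, 112 and 8.64 CPM in JmjC and 0.0370, 0.0297 and 20.5 CPM in Y874C. It had 1.61, 0.977 and 1.94 CPM in A224T, 0.313, 0.420 and 0.776 CPM in L854F and 1.82, 0 and 2.11 CPM in D234G, against 2.17, 375, 1629, 0.928 and 250.5 CPM in WT 1 to 5. Single libraries of 1 genotype therefore spanned a range as wide as that between strains: WT 1 and WT 4 lay among the low mutant libraries, and R873W 1 lay above WT 5. The 0 in D234G 2, the second shallowest library, allows up to 0.613 CPM (3 counts, counting error only).

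The other 5 genes had the same order of WT libraries, WT 3 first, then WT 2 and WT 5. In WT 1 to 5, whe had 0, 168, 558, 0.0546 and 56.7 CPM and lcs had 0.259, 118, 425, 0.164 and 57.2 CPM. CG45080 had 0, 44.3, 302, 0.0546 and 41.9 CPM, and Ag5r had 0.414, 31.9, 151, 0.71 and 19.0 CPM. CG33109 had 0.104, 15.8, 84.1, 0.109 and 11.3 CPM. A zero in WT 1 allows up to 0.155 CPM. WT 3 alone held 70.8% (lcs) to 77.8% (CG45080) of the summed CPM of the 5 WT libraries in these 6 genes, against 1.06% for frac, 6.97% for CG4757, 13.6% for Adh and 28.5% for Srg3.

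Within JmjC, R873W and Y874C the 6 genes peaked in the same library, all 6 in JmjC 2, in R873W 1 and in Y874C 3. In D234G 5 of the 6 were highest in D234G 3 and in A224T 4 of the 6 in A224T 3, while in L854F the highest value fell in each of the 3 libraries for 2 genes. Some of these A224T peaks rest on few counts, such as 1, 1 and 5 for CG45080, and D234G 1 and D234G 2 were the shallowest libraries. R873W 1 had 46.1 CPM of whe, 55.8 of lcs, 16.4 of CG45080, 17.2 of Ag5r and 8.89 of CG33109, while R873W 3 had 0 CPM of whe and 0.255, 0.0424, 0.127 and 0.170 CPM of the other 4. Summed over the 6 genes, the level was 441, 40.7 and 1.53 CPM in R873W, 14.1, 188 and 10.4 CPM in JmjC and 0.741, 0.831 and 31.8 CPM in Y874C. It was 2.51, 1.91 and 3.45 CPM in A224T, 2.03, 1.68 and 2.23 CPM in L854F and 4.43, 1.64 and 7.06 CPM in D234G, against 2.95, 752, 3149, 2.02 and 437 CPM in WT 1 to 5. A224T, L854F and D234G thus had no library above 7.06 CPM, a range that also held WT 1 and WT 4. The 3 JmjC libraries, R873W 2 and Y874C 3 lay between those 2 WT libraries and the 3 high ones, R873W 1 was just above WT 5, and R873W 3, Y874C 1 and Y874C 2 were below WT 4.

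**Figure D2:**
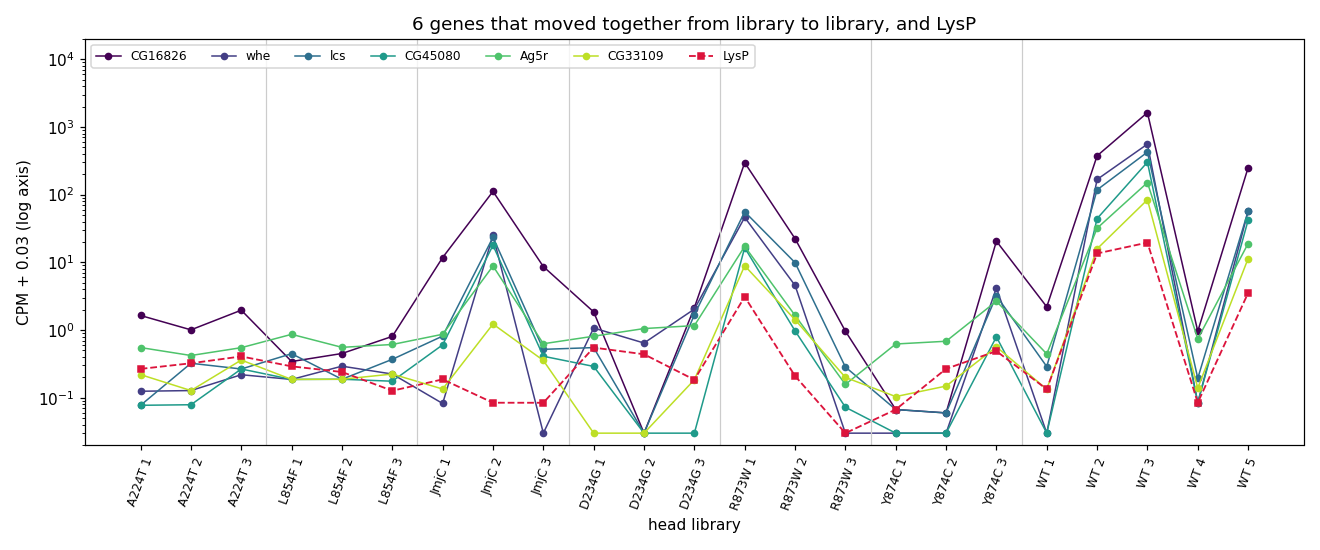
Level (CPM plus 0.03, log axis) of the 6 genes that moved together, and of LysP (dashed), in each of the 23 head libraries ordered by strain with WT last. All 6 lines peak in JmjC 2, R873W 1, Y874C 3 and, at their highest, WT 3, and drop in WT 1 and WT 4.

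Across the 23 libraries, which share strains and sets, Pearson's r of log2(CPM + 1) was 0.908 to 0.990 over the 15 pairs of these 6 genes. For deviations from each strain's own mean it was 0.926 to 0.995. Between these 6 and the other 4 genes r was 0.0329 to 0.317, and among Adh, Srg3, CG4757 and frac it was 0.258 to 0.621. For each of the 6, the 3 genes with the most similar pattern among the 8219 genes that averaged at least 5 CPM were other members of the 6. For Adh they were caz, an RNA-binding protein (0.934), CNBP (0.922) and Tom7, of the mitochondrial import pore (0.917). For Srg3 they were CG7016 (0.860), xit (0.839) and CG17726 (0.794). For CG4757 they were ninaE, the rhodopsin of outer photoreceptors (0.858), BaraA1, an immune peptide gene (0.832), and Bbd (0.786). For frac they were Spn47C, a serpin (0.889), CG44140 (0.819) and CG9377 (0.807).

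With no floor on the mean level, a search added after the data were seen, 8 further genes had an r of at least 0.85 with the mean pattern of the 6. They were CG44142, CG43680, CG34212, alpha-Man-Ic, LysP, CG43679, CG13947 and CG32984, with means of 0.556 to 4.58 CPM. LysP, a lysozyme gene known from adult salivary glands, had 3.07, 0.180 and 0 CPM in R873W and at most 0.157 CPM in JmjC, against 0.104, 13.5, 19.5, 0.0546 and 3.50 CPM in WT 1 to 5. LysP thus shared the high WT 2, WT 3, WT 5 and R873W 1 but was not high in JmjC 2. The 37 listed gut and digestive enzyme genes, LysP included, summed to 183, 348 and 152 CPM in JmjC, 1156, 35.8 and 175 CPM in D234G and 40.2, 46.5 and 47.5 CPM in R873W, against 51.3, 87.1, 66.9, 48.5 and 55.7 CPM in WT 1 to 5. The sum was highest in D234G 1, where the 6 genes were low, and WT 3 lay within the WT range. Between 0 and 24 of the 37 were at 0 in a library, and their part in the levels of the 6 genes was not tested.

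How far the fall rested on WT 3 was read by leaving that library out. The median log2 fold of the 10 genes against WT was -6.55 in A224T, -6.47 in L854F, -3.60 in JmjC, -5.97 in D234G, -2.83 in R873W and -5.53 in Y874C, while the median of all genes tested lay between -0.012 and 0.023. Without WT 3 it was -4.91 in A224T, -4.80 in L854F, -1.90 in JmjC, -4.66 in D234G, -1.80 in R873W and -4.42 in Y874C. With same-set WT libraries it was -7.06 in A224T, -6.98 in L854F, -3.96 in JmjC, -5.39 in D234G, -2.14 in R873W and -4.95 in Y874C. The median therefore stayed negative in each strain, and without WT 3 it was closest to 0 in R873W and JmjC. The kept sign is a description only, because these counts chose the genes. WT 2 and WT 5 were also high for the 6 genes that moved together. No alternative left out WT 2, WT 3 and WT 5 at once. Single mutant libraries moved the median further from 0 in JmjC, R873W and Y874C, to -5.62 without JmjC 2, -5.05 without R873W 1 and -6.87 without Y874C 3. In A224T, L854F and D234G, leaving out 1 mutant library gave -6.83 to -6.32, -6.56 to -6.39 and -6.53 to -5.89.

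Gene by gene, leaving out WT 3 moved the 6 co-varying genes towards 0. In R873W their log2 folds were -3.74 (CG45080) to -2.08 (CG16826) with all WT libraries and -1.89 (CG45080) to -0.56 (CG16826) without WT 3. In JmjC they were -5.35 (CG33109) to -3.36 (CG16826) with all WT libraries and -3.65 (CG33109) to -1.79 (CG45080) without WT 3. In A224T and L854F, whose libraries were all near 0, they were -10.19 (whe in A224T) to -5.95 (Ag5r in L854F) with all WT libraries and -8.71 (whe in A224T) to -4.31 (Ag5r in L854F) without WT 3. For Adh, CG4757 and frac the value without WT 3 was more negative than with it in all 6 strains, and for Srg3 it was between -4.01 (A224T) and 1.47 (JmjC). CG45080 in D234G, with 1 count in 3 libraries, and CG33109 in D234G, with 3 counts, are too low for a fold to be given. Both still entered the D234G medians. Folds of genes near 0 in A224T and L854F also rest on few counts, such as 2, 2 and 4 for whe in A224T, so their sizes are uncertain.

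**Figure D3:**
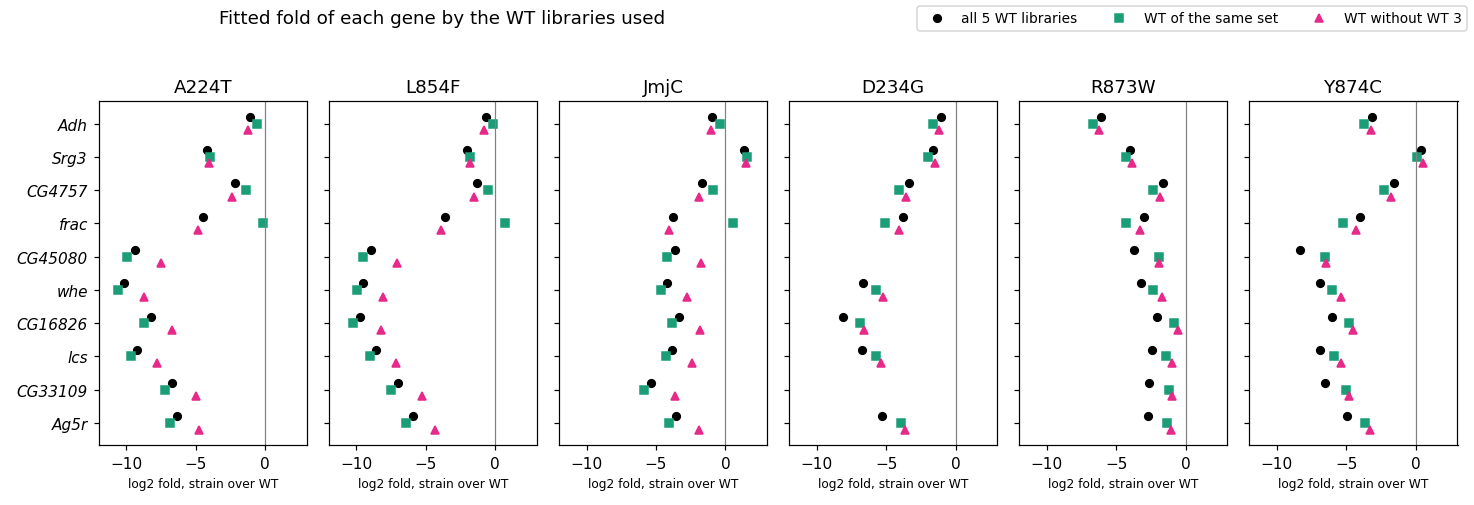
Fitted log2 fold of each gene, strain over WT, in the 6 strains, with all 5 WT libraries (circles), the WT libraries of the strain's own set (squares) and the WT libraries other than WT 3 (triangles); 2 genes with 3 or fewer counts in D234G are not drawn there. Values of frac in A224T, L854F and JmjC move to near 0 with same-set WT libraries, and the 6 lower rows move towards 0 without WT 3 in every strain.

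Differences between strains were tested without any WT library in the contrast, in 6 pairs of strains of the same set, over all 12093 genes. The spread came from 1 model over all 23 libraries, WT included. The libraries of these strains also entered the choice of the genes, which limits how far these tests are independent of it. By the quasi-likelihood test of edgeR, with p-values adjusted by Benjamini-Hochberg, Srg3 was higher in JmjC than in A224T (log2 fold 5.49 ± 0.77 SE, adjusted p = 0.000361) and than in L854F (3.33 ± 0.65 SE, adjusted p = 0.00122), and it was the 1 gene of the 10 called in each pair, where 5.85% and 20.9% of all genes were called. All 3 JmjC libraries lay above all A224T and L854F libraries, by a narrow margin for JmjC 3 (4.89 CPM) over L854F 1 (4.70 CPM). Between A224T and L854F 0 of the 10 genes were called by edgeR in this model (3.41% of all genes). At an unadjusted p under 0.05 there was 1, Srg3 at -2.16 ± 0.77 SE (edgeR adjusted p = 0.158), and DESeq2 called 1.

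Among the strains of set 1, Adh was higher in D234G than in R873W (log2 fold 5.05 ± 0.59 SE, edgeR adjusted p = 7.23e-06) and than in Y874C (2.08 ± 0.45 SE, adjusted p = 0.0018), and higher in Y874C than in R873W (2.97 ± 0.60 SE, adjusted p = 0.00311). The Adh libraries of these 3 strains did not overlap. Adh in R873W rested on 7, 3 and 4 counts, and how reads shared with Adhr were handled is not stated, so the sizes are uncertain. Srg3 was higher in Y874C than in R873W (4.37 ± 0.73 SE, edgeR adjusted p = 0.000861), also without overlap. D234G stood between them, at 2.35 ± 0.81 over R873W (adjusted p = 0.0291) and -2.03 ± 0.68 over Y874C (adjusted p = 0.0311, SE). CG4757 was lower in D234G than in R873W (-1.72 ± 0.60 SE, edgeR adjusted p = 0.0305) and than in Y874C (-1.77 ± 0.60 SE, adjusted p = 0.0306). This made 3 of the 10 genes called in D234G against R873W (36.7% of all genes), 3 in D234G against Y874C (29.1%) and 2 in Y874C against R873W (20.6%). Of the D234G calls, 1 gene, Adh, still passed without D234G 1, without D234G 3 or without R873W 2 against R873W, and 1, again Adh, without D234G 2 or without D234G 3 against Y874C. D234G 1 and 2 were the 2 shallowest libraries.

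None of CG45080, whe, CG16826, lcs, CG33109, Ag5r and frac passed in any of the 6 pairs by edgeR in the fit over all 23 libraries. That fit takes the spread from WT too, where these genes varied widely. With only the compared strains in the fit, edgeR called 3 of the 10 genes in JmjC against L854F and 3 in A224T against L854F. Their fitted differences were large but so were the errors. CG16826 was at 6.42 ± 2.67 SE in JmjC over L854F (edgeR adjusted p = 0.0995) and -6.04 ± 2.61 SE in D234G over R873W (adjusted p = 0.0759), and lcs was at -4.42 ± 2.00 SE in Y874C over R873W (adjusted p = 0.123). DESeq2 called 7 of the 10 genes in D234G against R873W.

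Other genes around Adh, Srg3 and Ag5r were read from lists written with earlier results of these data known, against all WT libraries and against those of the same set. Over all genes tested against all WT libraries, 7.57% fell and 7.19% rose in A224T, 3.41% and 4.38% in L854F, 14.8% and 12.1% in JmjC, 19.0% and 25.3% in D234G, 21.8% and 21.9% in R873W, and 10% and 9.27% in Y874C. Against same-set WT libraries, 9.1% fell and 7.18% rose in A224T, 5.49% and 4.8% in L854F, 14.0% and 10% in JmjC, 11.6% and 22.1% in D234G, 18.5% and 16.9% in R873W, and 5.83% and 5.8% in Y874C.

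The genes of alcohol and aldehyde metabolism were called differently with each choice of WT. Of the 7 tested against all WT libraries, 3 fell in JmjC, 3 in D234G, 3 in R873W and 1 in Y874C. Against same-set WT libraries 4 fell in JmjC, 3 in A224T, 1 in L854F and 1 in R873W, 1 rose in D234G and 1 in R873W, and in Y874C edgeR called 0, with 1 higher at an unadjusted p under 0.05. WT 1 and 2 themselves had 4 of the 7 lower than WT 3 to 5, where 13% of all genes were lower. In JmjC Men, malic enzyme, fell with both choices (log2 fold -0.56 ± 0.19 SE, edgeR adjusted p = 0.0383, and -0.88 ± 0.10 SE, adjusted p = 7.07e-06, against same-set WT), as did Aldh, mitochondrial aldehyde dehydrogenase, and AcCoAS, acetyl-CoA synthetase. With scaling by library size alone 0 fell and 1 rose in JmjC against all WT libraries. In R873W Aldh was at -0.72 ± 0.15 SE against all WT libraries (edgeR adjusted p = 0.00106) and -0.33 ± 0.12 SE against same-set WT (adjusted p = 0.0420). Against all WT libraries edgeR called 0 in A224T and in L854F, where 1 was lower in A224T and 2 were higher in L854F at an unadjusted p under 0.05.

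Of 9 tested genes of the STING and NF-kappaB branch, 4 rose in JmjC against all WT libraries, while 6 fell in D234G, 5 in Y874C, 3 in R873W and 1 in L854F, and edgeR called 0 in A224T, with 1 higher at an unadjusted p under 0.05. Against same-set WT libraries, where 10 were tested, the calls went both ways: 3 rose and 1 fell in JmjC, 2 rose and 3 fell in D234G, 1 rose and 3 fell in Y874C and also in R873W, and 1 fell in A224T and in L854F. Sting rose in JmjC with both choices (1.17 ± 0.21 SE, edgeR adjusted p = 0.000344, and 1.41 ± 0.21 SE, adjusted p = 8.18e-05, against same-set WT), as did Rel, which encodes Relish (0.60 ± 0.11 SE, adjusted p = 0.000163, and 0.50 ± 0.10 SE, adjusted p = 0.00125). Sting fell in D234G, with a log2 fold of -0.93 against all WT libraries (edgeR adjusted p = 0.00475) and -1.25 against same-set WT (adjusted p = 0.00151). It also fell in Y874C, at -0.95 (edgeR adjusted p = 0.00565) and -1.27 (adjusted p = 0.00122), where Srg3 was at 0.37 ± 0.52 SE and 0.06 ± 0.63 SE. cGlr2, which encodes a cGAS-like receptor, rose against same-set WT by 1.14 ± 0.19 SE in D234G (edgeR adjusted p = 0.00035), 1.01 ± 0.18 SE in R873W (adjusted p = 0.000356) and 1.16 ± 0.18 SE in Y874C (adjusted p = 0.000287). Scaling by library size alone, against all WT libraries, gave 6 higher in JmjC, 5 lower in D234G and 3 lower in Y874C.

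Listed markers of other head cells were also called, with counts that depended on the WT libraries used. Of 10 hemocyte genes, which mark immune cells of the blood, 7 rose in JmjC, 7 fell in D234G, 4 in R873W and 1 in Y874C against all WT libraries. Against same-set WT libraries 5 rose in JmjC, 5 fell in D234G, and 2 fell and 1 rose in R873W. WT 1 and 2 had 5 of the 10 lower than WT 3 to 5. Of 10 antennal genes 9 fell in D234G, 8 in R873W and 9 in Y874C against all WT libraries, but WT 1 and 2 had 8 of the 10 lower than WT 3 to 5. Against same-set WT libraries 2 antennal genes fell in D234G, 2 in Y874C and 5 in JmjC, and 2 fell and 4 rose in R873W. The hemocyte sum was 3122 to 3675 CPM in JmjC and 1601 to 1788 CPM in D234G, against 2418 to 4401 CPM in WT, and none of the 10 was at 0 in a library. The antennal sum was 358 to 413 CPM in D234G, 488 to 586 CPM in R873W and 445 to 538 CPM in Y874C, against 716 to 1300.04 CPM in WT. Their part in the levels of the 10 genes and in the list counts was not tested.

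Of 17 tested relatives of Ag5r in the CAP family, 14 rose in D234G, 10 in R873W and 1 in Y874C against all WT libraries, 1 fell in A224T and 1 in JmjC, and edgeR called 0 in L854F at either the adjusted or the unadjusted p. Against same-set WT libraries, where 19 were tested, 12 rose in D234G and 4 in R873W, and edgeR called 0 in Y874C, with 1 higher at an unadjusted p under 0.05. Ag5r itself averaged 0.979 ± 0.180 CPM in D234G and 6.31 ± 9.46 CPM in R873W (SD, n = 3 each), against 40.5 ± 63.0 CPM in WT (SD, n = 5). The relatives that rose in D234G included scpr-A (4.98 ± 0.62 SE, edgeR adjusted p = 8.46e-06) and CG6628 (8.41 ± 1.14 SE, adjusted p = 1.67e-05) against all WT libraries. Of the 27 relatives in the list, 7, 17 and 5 were at 0 in D234G 1 to 3, against 10 to 13 in a WT library. Their sums were 350, 222 and 333 CPM in D234G 1 to 3, against 19.7 to 46.4 CPM in WT. In D234G and R873W 22 of 23 tested genes of the male reproductive list rose against all WT libraries, and 22 in D234G and 17 in R873W against same-set WT. Their sums were 1594 to 3463 CPM in D234G and 1217 to 3578 CPM in R873W, against 845 to 1838 CPM in WT, with 1 to 20 of the 25 genes at 0 in a D234G library, 2 to 7 in an R873W library and 13 to 19 in a WT library. D234G 2 was the library with 20 at 0. In both lists, genes near 0 in WT could pass the filter on low counts only through libraries where they were higher. A rise over WT was therefore partly set by the filter, and the shares of tested genes that rose are a description only. The part of the male reproductive genes in the CAP family counts was not tested.

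The Ribo-Seq table, from other flies, gave another readout of the same genes, in a neuronal knockdown. In the authors' deposited table all 10 genes had negative values for knockdown against control in each of the RNA, footprint and translational efficiency columns, which are read as log2 folds. The knockdown target Kdm5 was at -0.97 for RNA (authors' adjusted p = 2.06e-22) and -2.02 for footprints in the authors' deposited table. At the authors' adjusted p under 0.05, RNA was lower for 6 of the 9 genes with a value (10.7% of all genes lower), footprints for 8 of 10 (17.9%) and translational efficiency for 10 of 10 (17.2%), and 0 were higher in any column of the authors' deposited table, where 10.1%, 7.2% and 9.64% of all genes were higher. The medians over the 10 genes in the authors' deposited table were -0.59 for RNA, -1.64 for footprints and -4.76 for translational efficiency, against -0.034, -0.061 and -0.054 over all genes. For CG45080, CG4757 and CG33109 the footprint value was less negative than the RNA value, yet the translational efficiency value was negative. The sign of that column thus conflicts with the other columns in these genes, and its counts and median are not read here as a fall in translation. The 10 include the 6 genes that moved together in heads, so they may not be 10 separate observations.

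The sizes differed by gene. In the authors' deposited table CG16826 was at -0.61 for RNA (authors' adjusted p = 6.13e-08), -7.01 for footprints (2.18e-50) and -10.85 for translational efficiency (1.89e-18). whe was at -0.57 for RNA (authors' adjusted p = 6.44e-08), -6.22 for footprints (9.29e-21) and -11.96 for translational efficiency (2.74e-11) in the authors' deposited table. For these 2 genes the footprint value was thus far below the RNA value. In the authors' deposited table lcs was at -1.75 for RNA, -2.25 for footprints and -7.50 for translational efficiency, CG45080 at -1.89, -0.76 and -9.91, and Ag5r at -0.37, -2.81 and -4.76, where the RNA value of Ag5r had an authors' adjusted p of 0.426. CG33109 was at -0.52 for RNA with no adjusted p, -0.41 for footprints (authors' adjusted p = 0.0607) and -4.75 for translational efficiency (0.0411) in the authors' deposited table, at a mean footprint count of 2.58.

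Of the other 4 genes, CG4757 had the lowest RNA value, -2.64 (authors' adjusted p = 2.87e-23), with -1.02 for footprints and -1.32 for translational efficiency in the authors' deposited table. Srg3, listed there as CG33926, was at -1.07 for RNA (authors' adjusted p = 0.00246), -2.28 for footprints and -2.75 for translational efficiency in the authors' deposited table, and Sting was at -1.26, -1.27 and -1.36. Adh was at -0.085 for RNA (authors' adjusted p = 0.700), -0.55 for footprints (7.38e-07) and -0.54 for translational efficiency (0.000774) in the authors' deposited table. Its RNA row held the same mean count as Adhr, 70555, which ranked 14 of 13963 genes, whereas Adh ranked 7614 of 12093 by CPM in the head libraries. For frac the values were -0.081 for RNA (authors' adjusted p = 0.889), -0.80 for footprints (0.0593) and -1.79 for translational efficiency (0.0144) in the authors' deposited table. The translational efficiency column does not equal the footprint value minus the RNA value, and counts of the 12 Ribo-Seq libraries were not analysed here, so whether single libraries carry these values was not tested.

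**Figure D4:**
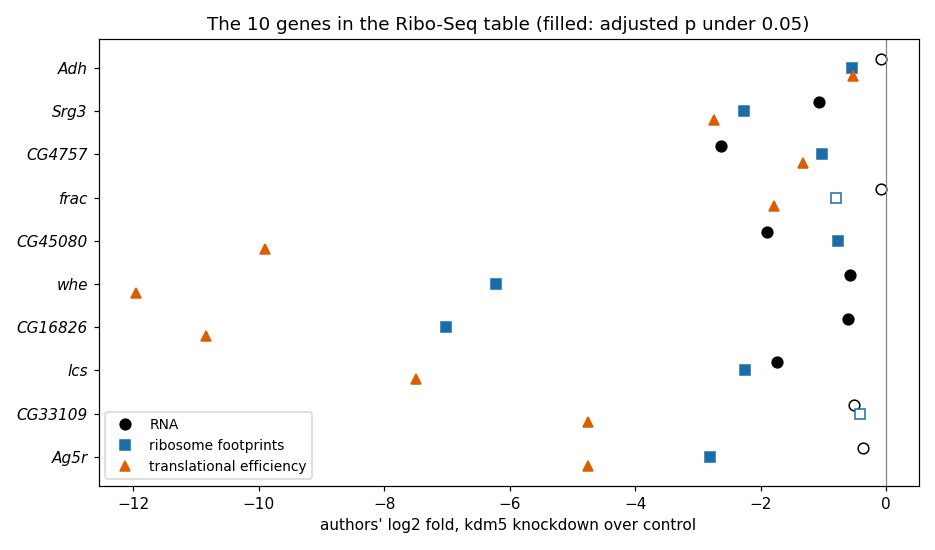
Log2 fold of kdm5 knockdown over control for each of the 10 genes in the authors' deposited Ribo-Seq table, for RNA (circles), ribosome footprints (squares) and translational efficiency (triangles), filled where the authors' adjusted p is under 0.05. All 30 points lie left of 0, and the lowest are the translational efficiency values of whe, CG16826 and CG45080.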

How the data were processed

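The 10 genes, the gene lists and the tests were chosen with earlier results of these data known. The deposited head table holds raw counts per gene for 17830 genes among 23882 rows; 0.764 to 1.52% of the counts fell in the other rows, insertions of transposable elements, which were not used. Per the submitters' processing notes, fastp, STAR, featureCounts, DESeq2 and dm6 were used; the sources used here give no versions and no strand or overlap option. For Ribo-Seq the authors' deposited comparison table of 30704 transcripts was used, with log2 folds (log2 because the notes name DESeq2), adjusted p-values and the authors' mean counts (averages over libraries, per the file headers); the transcript with the highest RNA mean count was kept for each of 13963 genes. Count tests planned for single Ribo-Seq libraries, and a motif search in promoters, were not run.

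Head counts were fitted with edgeR 4.0.16 (R 4.3.3, limma 3.58.1; TMM, filterByExpr, 12093 genes, quasi-likelihood F-test in 1 means model over 23 libraries, Benjamini-Hochberg adjusted p under 0.05). DESeq2 1.42.0 was an alternative; tables and figures used Python 3.11.15, pandas 2.3.3, numpy 2.4.6 and matplotlib 3.10.9. The fit was tested on simulated data for JmjC against A224T only, with the spread of each gene capped. That test says little about genes that varied as widely as the co-varying ones. Replicates of a strain differed by more than counting error, with a chi-square per degree of freedom between 7.22 and 77.8 for pairs within a library set (WT pairs across the sets had 109 to 139). No label says whether replicates are separate groups of flies; p-values reflect how these samples spread, and that spread may be technical. Floors are 3 counts of a library and cover counting error only. Named genes are the 10, Kdm5, roX1 and roX2, the 3 genes most correlated with each member among those averaging at least 5 CPM, and at most 4 genes of a list by smallest p; LysP, Sting and Adhr in the level and Ribo-Seq accounts were named after their values were seen. List genes not found were Sodh-1, Sodh-2, vago, CG10284 and PebII.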

Additional observations from a re-analysis of the deposited data

Results flagged for a closer look

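In 5 genes the WT 3 library stood apart from the other 4 WT libraries by Dixon's criterion for 5 samples, which chance alone meets in about 1 in 20 groups. That rate does not hold here, since the WT counts took part in choosing the genes, so the values below describe WT 3 and test nothing. WT 3 held 302 CPM of CG45080, 1629 CPM of CG16826, 425 CPM of lcs, 84.1 CPM of CG33109 and 151 CPM of Ag5r. The gap to WT 2, the next library, was 0.853, 0.770, 0.723, 0.813 and 0.790 of the WT range in these genes, in that order, against a critical value of 0.71. For whe, where WT 3 held 558 CPM, the share was 0.700 and was not past the critical value. The 5 genes are strongly correlated with each other, so these are not separate observations.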

How the results depend on the processing

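The median log2 fold of the 10 genes kept its sign in each strain under the 15 alternatives run for it. Because the same counts chose the genes, the kept sign is no test of the fall. Leaving out single replicates moved it over -6.87 to -4.91 in A224T, -6.79 to -4.80 in L854F, -5.62 to -1.90 in JmjC, -6.53 to -4.66 in D234G, -5.05 to -1.80 in R873W and -6.87 to -4.42 in Y874C. The log2 fold of frac in JmjC turned to 0.52 with same-set WT libraries, the levels of WT 3 to 5 being at those of JmjC. Counts of the 10 genes called between strains moved as follows: with only the compared strains in the fit, 2 in JmjC against A224T, 3 in JmjC against L854F, 3 in A224T against L854F and 1 in Y874C against R873W, where Adh no longer passed the filter on low counts; with DESeq2, 2 in JmjC against L854F, 1 in A224T against L854F and 7 in D234G against R873W. Apart from the lost filter, the cause was not tested. Without single replicates these counts were 1 to 1 for JmjC against A224T, 1 to 1 for JmjC against L854F, 0 to 0 for A224T against L854F, 1 to 2 for D234G against R873W, 1 to 3 for D234G against Y874C and 2 to 2 for Y874C against R873W. The calls of Adh, and of Srg3 in JmjC and in Y874C against R873W, passed in every alternative that gave them a value; those of Srg3 and CG4757 in D234G did not, with adjusted p up to 0.149 over their alternatives by edgeR or DESeq2. Same-numbered replicates did not deviate together (correlations -0.601 to 0.197, and in 0 comparisons over 0.1 for every pair), so the numbers are names only; with the replicate block the medians were -6.85 in A224T, -6.76 in L854F, -3.76 in JmjC, -6.50 in D234G, -2.77 in R873W and -6.06 in Y874C, and the counts called were 1, 1, 0, 3, 3 and 2, as without it. In the Ribo-Seq table, counting a gene only where every listed transcript was lower also gave 6, 8 and 10 genes. Depth limits the low values: 3 counts were 0.0891 to 0.181 CPM in most libraries, but 0.781 CPM in D234G 1 and 0.613 CPM in D234G 2.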

Other observations

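The 8 genes that followed the 6 co-varying ones in heads (CG44142, CG43680, CG34212, alpha-Man-Ic, LysP, CG43679, CG13947 and CG32984) were chosen on head libraries alone, and the Ribo-Seq table gives them a separate readout. In the authors' deposited table footprints were lower in knockdown than in control for 8 of 8 and translational efficiency for 8 of 8 at the authors' adjusted p under 0.05, while RNA was lower for 2 of the 7 with a value, LysP at -2.10 and CG43679 at -2.07. Over all genes in it, 17.9% had lower footprints, 17.2% lower translational efficiency and 10.7% lower RNA. The medians in the authors' deposited table were -0.26 for RNA, -1.98 for footprints and -7.55 for translational efficiency, against -0.034, -0.061 and -0.054 over all genes. Their mean counts in that table were low, 2.89 to 69.1 for RNA and 3.40 to 69.4 for footprints. For LysP the footprint value, -1.99, was slightly less negative than the RNA value, yet translational efficiency was at -7.35. The translational efficiency values of the 8 are therefore not read as a fall in translation. All 8 were chosen for following the same head pattern, so they may not be 8 separate observations. Whether single Ribo-Seq libraries carry these values was not tested. CG13947 had the lowest footprint value of the 8, -3.70, in the authors' deposited table.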
